A study of Mus musculus with 4 samples.

Results

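The NRF2 pathway and antioxidant genes were followed as a list of 31 named genes, chosen by symbol and all found among the 35905 genes of the deposited tables. They were measured in cells of the Lewis lung carcinoma (LLC), by poly-A RNA sequencing; LLC is a transplantable lung tumour line that grows in C57BL/6 mice. The cells carried TdTomato and had grown for 4 weeks as subcutaneous flank tumours in C57BL/6 hosts, and the sort kept TdTomato+ cells without CD45, a surface protein of leukocytes. WT hosts were Mrp8Cre-, Padi4fl/fl. PAD4-DN hosts were Mrp8Cre+, Padi4fl/fl, so that Padi4, which encodes a histone-citrullinating enzyme used in neutrophil extracellular trap release, is deleted where Mrp8Cre is active, mainly neutrophils. The floxed Padi4 alleles were thus common to both groups, and the implanted line is not of host origin. Each group had 2 libraries, of 20036322 to 25327974 estimated counts. The labels used here give neither host age nor whether each library is a separate animal, and a p-value is thus one against library-to-library spread, which may be technical. All 31 members passed the filter on low counts, and 13718 genes in all were tested.

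NRF2, the product of Nfe2l2, is a transcription factor that is normally bound by KEAP1 and sent for degradation. Oxidants and electrophiles modify KEAP1 cysteines, NRF2 then accumulates, pairs with small MAF proteins and binds antioxidant response elements near genes of glutathione synthesis, the thioredoxin system, quinone and heme handling, ferritin and NADPH supply. Lung cancers often carry changes in this pathway, and the antioxidant enzymes in the list that are less dependent on NRF2, such as the superoxide dismutases, act on the same oxidants.

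RefSeq promoter windows of build GRCm38.p6, running from 250 bases before to 50 bases after a start site, were matched by symbol for 25 of the 31 members (36 windows). They were searched on both strands for TGACNNNGC, the core letters of an antioxidant response element. Gsr, Hmox1, Abcc1, Gsta4, Prdx6 and Gclc had no window and were not searched, nor was any sequence outside the windows. The letters were found in windows of 10 members: Nfe2l2, Srxn1, Gclm, Prdx1, Pgd, Mgst1, Me1, Txnrd1, Sod1 and G6pdx. That was 27.8% of the member windows and 12.4% of all 32851 windows of the same length. The longer-defined TGACTCAGC, each match of which is also a TGACNNNGC match, was in 2 member windows, those of Prdx1 and Me1, and in 0.454% of all windows. The matches that began before the start site are shown because they place the motif letters beside genes whose levels follow, each in the direction of the motif with its letters in capitals and 10 bases on either side:
Prdx1: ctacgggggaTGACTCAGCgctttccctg
Me1: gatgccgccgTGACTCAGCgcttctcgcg
G6pdx: gcgtgtgcttTGACTGAGCtgacccgcct
Txnrd1: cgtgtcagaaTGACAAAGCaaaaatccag
Gclm: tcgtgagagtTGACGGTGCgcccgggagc
Nfe2l2: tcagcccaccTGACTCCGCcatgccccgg
Sod1: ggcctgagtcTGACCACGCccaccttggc
Mgst1: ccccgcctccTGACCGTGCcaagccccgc

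The Prdx1 stretch lies at chr4:116685456-116685484 on the minus strand, its motif 133 bases before the start, and the Me1 stretch at chr9:86695902-86695930 on the minus strand, its motif spanning the start. The G6pdx stretch lies at chrX:74428919-74428947 on the plus strand, 57 bases before the start, and the Txnrd1 stretch at chr10:82859104-82859132 on the minus strand, 92 bases before. The Gclm stretch lies at chr3:122245413-122245441 and the Nfe2l2 stretch at chr2:75704885-75704913, both on the minus strand, 134 and 240 bases before the start. The Sod1 and Mgst1 stretches, at chr16:90220696-90220724 and chr6:138140461-138140489 on the minus strand, were both 56 bases before. A match describes these letters and not a bound site.

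The labelled cell type was checked on a list of markers, in CPM. Vim, Krt8, Krt18, Hmga2 and Myc were present, with Krt8 between 162 and 217 CPM. Krt19 of the same list was at 0.377 to 1.35 CPM, and the epithelial Epcam and Cdh1 were at most 0.168 and 0.342 CPM. The 5 leukocyte markers summed to 2.64 to 20.4 CPM. Of the fibroblast markers, Col3a1 was at 6564 to 11641 CPM, while Col1a2 ranged from 0.879 to 467 CPM.

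The level of each gene was taken from TPM, which is scaled for transcript length and can be compared between genes. The list covered a wide range, and its members together held between 0.686% and 0.856% of all TPM in a library. Fth1, the ferritin heavy chain that oxidises and stores iron, was the most abundant, at 3066 and 2089 TPM in WT replicates 1 and 2 and 3268 and 2249 TPM in PAD4-DN replicates 1 and 2. Its partner Ftl1, the ferritin light chain, came next with a mean over the 4 libraries of 1061 TPM, ahead of the peroxide-reducing Prdx1 (606 TPM), the protein disulfide reductant Txn1 (560 TPM) and Prdx6 (388 TPM). Prdx1 and Txn1 overlapped, and in PAD4-DN replicate 1 Txn1 (525.9 TPM) was above Prdx1 (487.7 TPM). The next neighbours, Prdx6 and the autophagy receptor Sqstm1 (366 TPM), and the group of Gpx4, Sod1 and Gpx1 (287, 258 and 248 TPM), overlapped between libraries in this order. At the other end stood 5 members with a mean under 15 TPM: the catalytic subunit of glutathione synthesis Gclc (13.7), the quinone reductase Nqo1 (7.31), the glutathione transferase Gsta4 (4.88), the oxidative stress-induced growth inhibitor Osgin1 (3.22) and the microsomal glutathione transferase Mgst1 (3.00). Nfe2l2 was at 162 TPM and its inhibitor Keap1 at 22.7 TPM. Nqo1, often used to report NRF2 activity, was thus well below other target genes such as Txnrd1 at 106 TPM and Srxn1 at 48.6 TPM.

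**Figure D1:**
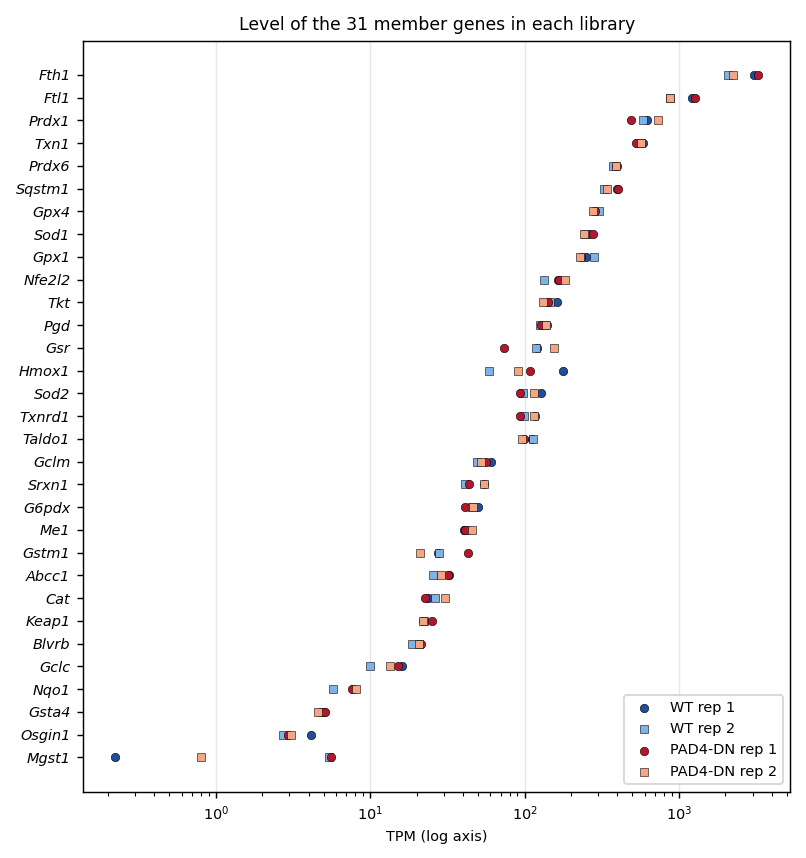
TPM on a log axis for each of the 31 members, ranked by their mean, with a point for each of the 4 libraries (blue WT, red PAD4-DN; circles replicate 1, squares replicate 2). Fth1 and Ftl1 stand at the top, with both replicate 1 libraries to the right of both replicate 2 libraries, and Mgst1 at the bottom is the most scattered.

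The comparison of PAD4-DN with WT asked whether the tumour cells' antioxidant genes differ when host neutrophils lack Padi4. No member passed. By edgeR's quasi-likelihood test with Benjamini-Hochberg adjustment over all 13718 genes, 0 of 31 members and 0.0% of all genes were called at 0.05. DESeq2 on the same genes called 0 of 31 members and 0.0802% of all genes. At an unadjusted p under 0.05, edgeR gave 1 member (Taldo1), against 2.65% of all genes. The smallest adjusted p among members was 0.988 by edgeR. The members' log2 fold changes, PAD4-DN minus WT, had a median of −0.08, against 0.01 over all genes tested, with 22 members negative and 9 positive, where 48.5% of all genes were negative. Leaving out WT replicate 1 gave 11 negative members, and leaving out WT replicate 2 gave 27. They ran from −0.35 for Hmox1 to 0.15 for Nfe2l2. On log2(TPM + 1), which had no TMM scaling between libraries, the median was 0.02 against 0.06 over all genes, and 11 members changed sign. With effective length offsets and TMM in edgeR the median was −0.05 against 0.01 over all genes. There 22 members were negative and 6 changed sign. The sign of the list's median thus changed on log2(TPM + 1) and not with the length offsets.

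Against the spread between libraries, which may be technical, the precision was enough to bound most members. For 28 of 31 members, against 67.1% of all genes tested, the 95% interval of the fold change lay within 2-fold in both directions; the exceptions were Hmox1, Osgin1 and Mgst1. For Keap1 the interval of the log2 fold change ran from −0.34 to 0.29 around a fitted −0.02. For Nfe2l2 it ran from −0.29 to 0.59, or from 18.5% lower to 50.4% higher in PAD4-DN. With 2 libraries in each group, the smallest two-sided p that an exact permutation test allows is 0.333. In 26 of 31 members the larger gap between libraries of the same genotype exceeded the gap between genotypes on the log2 scale, as it did for 78.3% of all genes tested.

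**Figure D2:**
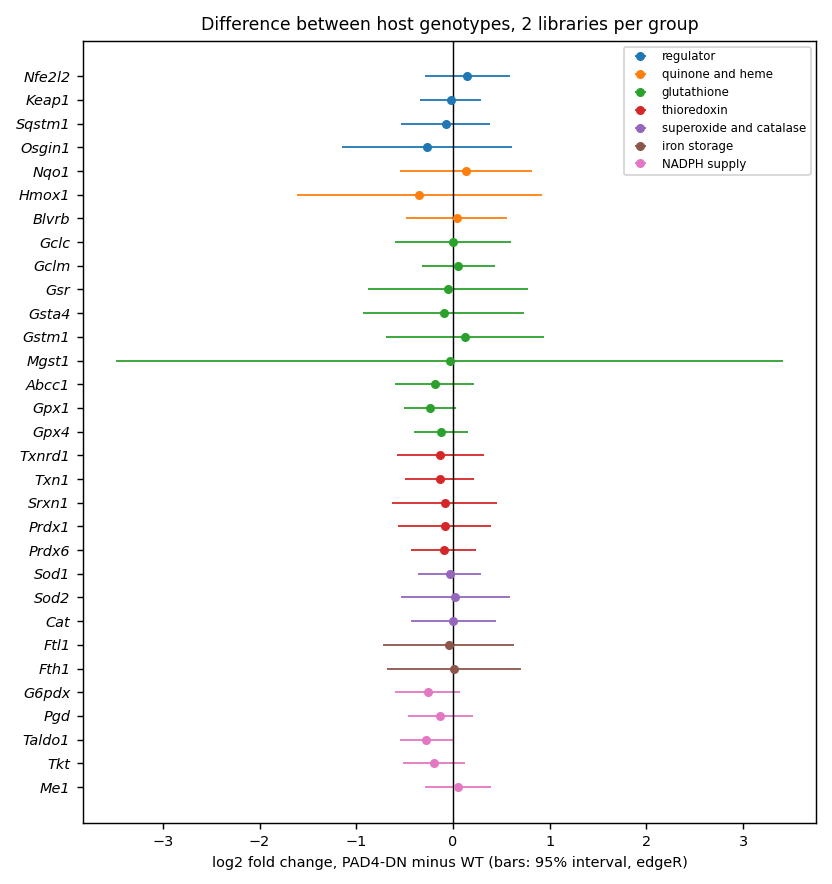
Fitted log2 fold change of each member, PAD4-DN minus WT, with its 95% interval from edgeR (2 libraries per group), coloured by role. All intervals but that of Taldo1 include 0, and that of Mgst1 is the widest.

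The regulators Nfe2l2, Keap1, Sqstm1 and Osgin1 overlapped between the genotypes in CPM. From here values are in CPM, counts scaled to library size by TMM, which are comparable between libraries but not between genes, and are given for replicate 1 and then replicate 2. Nfe2l2 was at 283 and 216 CPM for WT against 263 and 289 CPM for PAD4-DN. In TPM its groups did not overlap, at 165.9 and 132.9 for WT against 166.5 and 182.4 for PAD4-DN, the nearest values differing by little. Keap1, the substrate adaptor that holds NRF2, was at 49.1 and 46.6 CPM for WT against 49.5 and 44.6 CPM for PAD4-DN, among the most even of the list. Sqstm1, which can sequester KEAP1 and is itself an NRF2 target, was at 440 and 341 CPM, against 401 and 340 CPM. The groups overlapped in CPM for all of these, and WT replicate 2 was the lowest or next to the lowest library for Nfe2l2, Keap1 and Sqstm1 alike. Osgin1 was low throughout, at 5.50 and 3.37 CPM for WT against 3.76 and 3.61 CPM for PAD4-DN.

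The quinone and heme genes varied mainly between the WT libraries. Hmox1, which degrades heme to biliverdin, iron and carbon monoxide, was at 180 and 56.4 CPM for WT against 99.9 and 85.8 CPM for PAD4-DN, so that both PAD4-DN libraries lay between the WT libraries. The WT libraries differed 3.19-fold and the PAD4-DN libraries 1.16-fold. The Hmox1 difference between genotypes (log2 fold change −0.35, SE 0.51) took its sign from the WT library kept: it was −0.95 with WT replicate 2 left out and 0.73 with WT replicate 1 left out. Nqo1 was at 7.87 and 5.55 CPM for WT against 7.08 and 7.67 CPM for PAD4-DN. Blvrb, a biliverdin and flavin reductase, was at 12.4 and 9.64 CPM, against 11.6 and 11.0 CPM. In all 3 genes WT replicate 1 was the highest and WT replicate 2 the lowest library.

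The same order held for the rate-limiting enzyme of glutathione synthesis. Its catalytic subunit Gclc was at 36.9 and 23.2 CPM for WT against 31.4 and 28.6 CPM for PAD4-DN. Its modifier subunit Gclm was at 48.0 and 38.5 CPM, against 43.9 and 46.1 CPM. Abcc1, an exporter of glutathione conjugates, was at 154 and 116 CPM for WT against 117 and 120 CPM for PAD4-DN, with WT replicate 1 apart from the other libraries in CPM. In TPM it was not, at 32.5 and 25.5 for WT against 31.8 and 28.7 for PAD4-DN, and the Abcc1 log2 fold change of −0.19 became 0.07 on log2(TPM + 1) and 0.03 without WT replicate 1. The cystine importer gene Slc7a11, which supplies the same synthesis and was picked out after its values were seen, was also highest in WT replicate 1 and lowest in WT replicate 2 (15.0 and 7.06 CPM, against 8.34 and 13.8 CPM in PAD4-DN). It came from 89 other pathway genes tested, which did not share this order as a list. WT replicate 1 was above WT replicate 2 for 50 of the 89. It was at least 1.2 times WT replicate 2 for 18, and the reverse held for 18.

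WT replicate 1 was the highest library in CPM for 21 of 31 members, against 3017 of the 13718 genes tested, and stood above WT replicate 2 for 27 of 31, against 47.6%. It was at least 1.2 times WT replicate 2 for 14 members, against 17.7% of all genes tested, and the reverse held for 1 (Mgst1), against 20.7%. WT replicate 1 also differed in the deposited effective lengths: over transcripts of at least 5000 bases the effective length fell short of the length by a median of 224 bases there and 237 to 239 bases in the others. In TPM, which is scaled by effective length, WT replicate 1 was the highest library for 13 members, against 13.4% of all genes tested, and above WT replicate 2 for 22, against 39.9%.

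**Figure D3:**
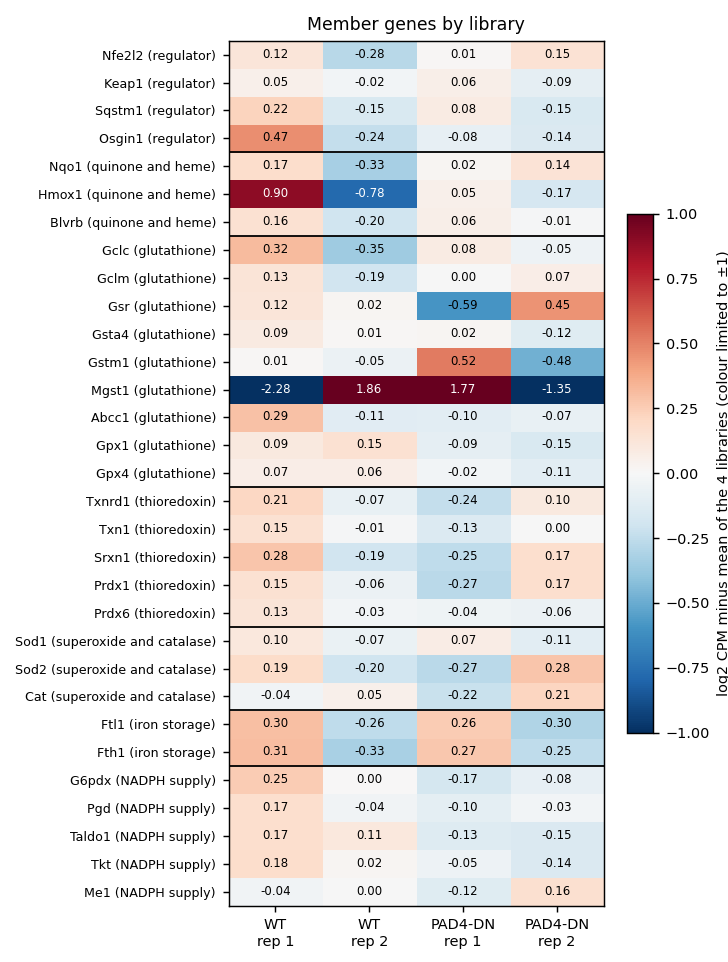
Each member's log2 CPM minus its mean over the 4 libraries (columns), grouped by role; red is above and blue below the mean, with colour limited to ±1. The WT replicate 1 column is above the mean for most members, and the ferritin rows alternate between replicate 1 and replicate 2 in both genotypes.

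The glutathione-using enzymes had no common pattern. Gsr, which regenerates reduced glutathione with NADPH, was at 186 and 174 CPM for WT against 114 and 233 CPM for PAD4-DN, so that the PAD4-DN libraries lay on either side of both WT libraries. Its log2 fold change of −0.05 (SE 0.33) became 0.38 without PAD4-DN replicate 1 and −0.66 without PAD4-DN replicate 2. The glutathione transferase gene Gstm1 was arranged the other way, at 21.9 and 20.98 CPM for WT against 31.3 and 15.6 CPM for PAD4-DN. Its value of 0.13 became −0.46 without PAD4-DN replicate 1 and 0.55 without PAD4-DN replicate 2. Gstm1 has close relatives in its gene family, and kallisto shares out reads that fit several transcripts, so its value is uncertain. Gsta4, which clears the lipid peroxidation product 4-hydroxynonenal, had 55 to 67 counts in each library and was at 2.81 and 2.66 CPM for WT against 2.68 and 2.43 CPM for PAD4-DN.

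Mgst1 was the least even member. It had 3 and 59 counts for WT against 45 and 6 for PAD4-DN, or 0.132, 2.34, 2.20 and 0.252 CPM, high in WT replicate 2 and PAD4-DN replicate 1 and near the floor in the others. The same libraries were high for the fibroblast markers Col1a1, Col1a2, Mfap5 and Pi16, with Col1a1 at 16.0 and 531 CPM for WT against 652 and 16.9 CPM for PAD4-DN. The extracellular glutathione peroxidase gene Gpx3, picked out after its values were seen, was at 0.132 and 9.68 CPM for WT against 17.9 and 0.0419 CPM for PAD4-DN. Over the 10 fibroblast markers the summed level was 9264 and 10882.5 CPM for WT against 14729 and 8768 CPM for PAD4-DN. No marker was at 0 counts and Col3a1 held most of each sum. Other markers of the list had another order: Lum and Dcn were highest in PAD4-DN replicate 2, and Fap was lowest in WT replicate 2. The part of fibroblast RNA in Mgst1 was not tested. In bulk samples fewer cells of a type and less RNA per cell cannot be told apart.

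Gpx1 and Gpx4, the glutathione peroxidases among the members, had lower CPM in both PAD4-DN libraries by small amounts that did not pass. Gpx1, the cytosolic selenoenzyme that reduces hydrogen peroxide, was at 111 and 115 CPM for WT against 97.2 and 93.3 CPM for PAD4-DN, and its fitted log2 fold change was −0.24 (SE 0.11, edgeR adjusted p = 0.988). Gpx4, which reduces lipid hydroperoxides and guards against ferroptosis, was at 132 and 132 CPM for WT against 124 and 117 CPM for PAD4-DN. The groups overlapped for neither gene in CPM. In TPM they overlapped for Gpx4, at 281 and 302 against 288 and 276, and did not for Gpx1, at 251 and 281 against 233 and 228.

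Most thioredoxin system genes were lowest in PAD4-DN replicate 1, and none passed the test. Txnrd1, the NADPH-dependent reductase of thioredoxin, was at 249 and 204 CPM for WT against 183 and 231 CPM for PAD4-DN. Srxn1, which rescues overoxidised peroxiredoxins, was at 107 and 77.4 CPM, against 74.2 and 99.2 CPM. Prdx1 was at 460 and 398 CPM, against 344 and 464 CPM. The groups overlapped in these genes, and PAD4-DN replicate 1 was the lowest library in each. Txn1 also had its lowest library there: it was at 371 and 330 CPM for WT against 304 and 333 CPM for PAD4-DN. Prdx6, a peroxiredoxin that acts on phospholipid peroxides, was at 284 and 255 CPM, against 253 and 251 CPM. The median log2 fold change of the 5 thioredoxin genes was −0.10. It was −0.31 without PAD4-DN replicate 2 and 0.03 without PAD4-DN replicate 1, and 0.02 without WT replicate 1, so its sign turned with either library.

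For the superoxide dismutases and catalase no difference between the genotypes was detected. Sod1, the cytosolic copper-zinc enzyme, was at 84.0 and 74.6 CPM for WT against 82.4 and 72.6 CPM for PAD4-DN. Sod2, the mitochondrial manganese enzyme, was at 126 and 96.4 CPM, against 91.8 and 134 CPM. Cat, which splits hydrogen peroxide in peroxisomes, was at 43.4 and 46.2 CPM, against 38.2 and 51.6 CPM. The groups overlapped for all 3, and the 95% intervals of the log2 fold changes ran from −0.36 to 0.29 for Sod1, from −0.54 to 0.59 for Sod2 and from −0.44 to 0.45 for Cat. PAD4-DN replicate 2 was the highest and replicate 1 the lowest library for Sod2 and Cat, as for Gsr and Prdx1.

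The ferritin chains varied between the libraries of each genotype, and the genotypes overlapped. Fth1 was at 1645 and 1061 CPM for WT against 1604 and 1116 CPM for PAD4-DN. Ftl1 was at 684 and 464 CPM, against 662 and 450 CPM. Replicate 1 exceeded replicate 2 in both genotypes, by 1.55-fold and 1.44-fold for Fth1 and by 1.47-fold in each for Ftl1. The chains kept nearly the same ratio in every library, with Fth1 TPM at 2.53 and 2.38 times Ftl1 TPM in WT and 2.55 and 2.59 times in PAD4-DN. The fitted log2 fold change was 0.01 (SE 0.28, 95% interval −0.68 to 0.70) for Fth1 and −0.05 (SE 0.27) for Ftl1. Replicate numbers were not known to pair the libraries.

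Other iron and metal genes, picked out after their values were seen, are set beside ferritin here. Tfrc, the transferrin receptor that imports iron, was low where ferritin was high within each genotype, at 89.5 and 214 CPM for WT against 63.1 and 122 CPM for PAD4-DN. The metallothionein Mt1 was at 142 and 43.2 CPM for WT against 114 and 80.4 CPM for PAD4-DN. Mt2 was at 217 and 63.7 CPM, against 201 and 131 CPM, with the order of replicates seen for ferritin in both metallothioneins. The 8 erythroid markers summed to 40.6 and 4.40 CPM for WT against 137 and 3.69 CPM for PAD4-DN, with 0 to 2 of them at 0 counts in a library. The 10 neutrophil markers summed to 17.1 and 7.30 CPM for WT against 21.03 and 10.1 CPM for PAD4-DN, with up to 4 at 0 counts. The 10 macrophage markers, from a cell type rich in ferritin, summed to 42.4 and 43.7 CPM for WT against 85.2 and 11.7 CPM for PAD4-DN, with no marker at 0. Erythroid and neutrophil sums were thus higher in replicate 1 of each genotype, as ferritin was, and macrophage sums in PAD4-DN only. The sums of the 8 endothelial and of the 8 LLC tumour line markers had the same order, the latter at 5423 and 4678 CPM for WT against 5089 and 4738 CPM for PAD4-DN. Vim held most of the LLC sum in each library, and Hmga2 had the other order in PAD4-DN, at 772 and 876 CPM. In the neutrophil list Cxcr2 and Mmp9 also had the other order in PAD4-DN, at 3.61 and 3.94 CPM and at 1.90 and 2.98 CPM. So did Ngp and Ly6g, which were near the floor. Csf3r had the other order in WT, at 0.220 and 0.476 CPM. The part of these cell types in the ferritin values was not tested.

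**Figure D4:**
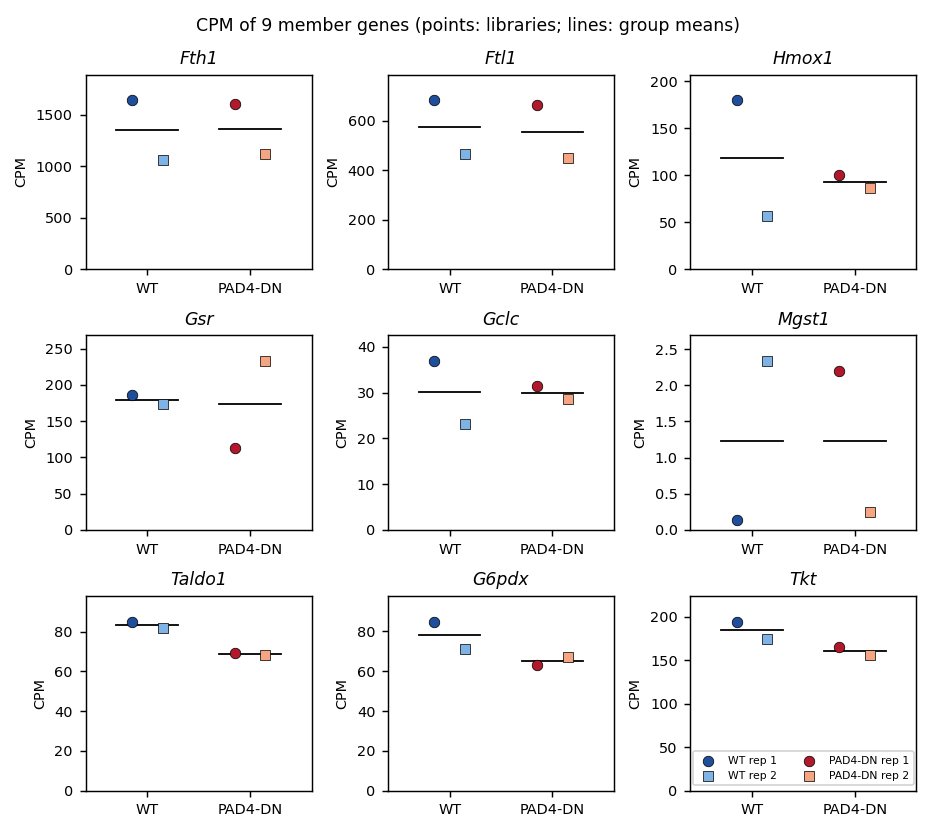
CPM from 0 in each library for 9 members (points; lines are group means of 2 libraries). Fth1 and Ftl1 split by replicate within both genotypes. Hmox1 and Gclc have both PAD4-DN values between the WT values, and Gsr has both WT values between the PAD4-DN values. Mgst1 is high in WT replicate 2 and PAD4-DN replicate 1, and Taldo1, G6pdx and Tkt do not overlap between genotypes.

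Taldo1, Tkt, G6pdx and Pgd, the members from the pentose phosphate pathway, which makes NADPH that glutathione and thioredoxin reductases use, had lower mean CPM in PAD4-DN, and none passed. Other genes of that pathway differed in sign, at −0.18 for Pgls, 0.05 for Rpia and 0.03 for Rpe in log2 fold change, all overlapping. Taldo1, the transaldolase of its non-oxidative arm, was at 85.1 and 81.7 CPM for WT against 69.3 and 68.5 CPM for PAD4-DN, with libraries of each group close together and no overlap. The means were 83.4 ± 2.35 and 68.9 ± 0.589 CPM (SD, n = 2 each). Its log2 fold change was −0.28 (SE 0.11), with an unadjusted p of 0.0475 and an adjusted p of 0.988 by edgeR. Tkt, the transketolase that acts beside it, was at 194 and 174 CPM, against 165 and 156 CPM, a log2 fold change of −0.20 (SE 0.13). G6pdx, the entry enzyme of the pathway, was at 84.9 and 71.2 CPM for WT against 63.0 and 67.2 CPM for PAD4-DN (−0.26, SE 0.14). Pgd, the next NADPH-making step, was at 197 and 171 CPM, against 164 and 172 CPM, with overlap. Me1, the malic enzyme that makes NADPH outside this pathway, went the other way at 79.9 and 82.0 CPM, against 75.5 and 91.9 CPM, also with overlap.

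Taldo1, Tkt, G6pdx, Gpx1, Gpx4 and Prdx6 were the 6 members with both PAD4-DN values under both WT values, where 17.4% of all genes tested lay. None was above both, where 15.4% of genes were, so that 6 of 31 did not overlap in either direction against 32.8% of genes. In TPM the members below were 3, Gpx1, Taldo1 and Tkt, against 10.5% of genes, and those above were Nfe2l2 and Blvrb, against 22.9%. The median log2 fold change of the 5 NADPH supply genes was −0.20, and it stayed negative without each library in turn, from −0.27 without WT replicate 2 to −0.11 without WT replicate 1. On log2(TPM + 1) it was −0.12, and Pgd there was at −0.00. The log2 fold change of Taldo1 was negative in each alternative fit run, from −0.30 to −0.20, and had an unadjusted p under 0.05 only in the reported fit and in the fit with named gene copies added.

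At the transcript level, 18 of 31 members had a leading transcript that held at least 90% of their counts on average over libraries. The leading transcript was annotated as protein coding for 29. The exceptions were Tkt, where Tkt-209, a processed transcript, held 80.8% and 82.1% of counts for WT against 83.0% and 83.1% for PAD4-DN, and Prdx6, where Prdx6-208, a nonsense-mediated decay transcript, held 47.3% to 52.2%. Prdx6-207, a processed transcript, held 21.5% to 28.7% of Prdx6 counts, and the protein-coding Prdx6-202 held 14.7% to 16.7%. The Tkt and Prdx6 totals are therefore mostly reads assigned to transcripts not annotated as protein coding in GENCODE M21. Shares of G6pdx-203 were higher in PAD4-DN, at 3.84% and 5.97% of G6pdx counts for WT against 8.53% and 13.3% for PAD4-DN, with the main G6pdx-201 at 95.7% and 93.1% for WT and 91.5% and 86.4% for PAD4-DN; these shares were not tested. Blvrb-202 took 8.49% and 29.2% of Blvrb counts for WT against 13.7% and 21.6% for PAD4-DN, from 24 to 71 counts per library. The 2 main Gpx4 transcripts were Gpx4-202, at 53.0% to 60.0% of counts, and Gpx4-207, at 39.2% to 45.9%.

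Of the other genes of the pathway, a list of 97 symbols, 89 gene entries passed the filter and 0 were called by edgeR or DESeq2. At an unadjusted p under 0.05 by edgeR 3 were lower and 0 higher in PAD4-DN, against 1.42% and 1.23% of all genes. Their median log2 fold change was −0.04. Choosing genes by smallest p in these same libraries favours genes without overlap, so their lack of overlap is no separate result. The 6 coding genes with the smallest p and a mean of at least 5 CPM were all below WT without overlap, with an edgeR adjusted p of 0.988 each. Mgst2, a microsomal glutathione transferase under that level and named after its values were seen, went the other way, at 3.17 and 2.94 CPM for WT against 6.59 and 4.15 CPM for PAD4-DN (edgeR unadjusted p = 0.0606, adjusted p = 0.988). Sesn2, a stress-induced sestrin, was at 29.6 and 30.5 CPM for WT against 20.2 and 22.3 CPM for PAD4-DN. Txn2, the mitochondrial thioredoxin, was at 83.4 and 77.7 CPM, against 63.4 and 63.1 CPM. The transporter Abcc4 was at 49.4 and 50.1 CPM, against 36.9 and 40.5 CPM. The aldose reductase Akr1b3 was at 93.6 and 91.0 CPM, against 77.2 and 78.9 CPM. Dpp3, a peptidase that can bind KEAP1, was at 75.0 and 72.3 CPM, against 63.2 and 60.8 CPM. Trim16 was at 20.7 and 23.3 CPM, against 11.7 and 19.7 CPM. Over the whole list 20 of 89 genes lay under the WT values without overlap and 10 above, against 17.4% and 15.4% of all genes tested, which is near that background.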

How the data were processed

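Poly-A RNA was sequenced from sorted LLC cells of 2 WT and 2 PAD4-DN samples. Per the submitters' processing notes, kallisto and GRCm39 were used, with version and annotation release not given in the sources used here. The authors deposited, per transcript, estimated counts (not normalized) and TPM (scaled for effective length), with lengths per the file headers. GENCODE release M21 matched 116408 of 117486 transcripts to genes; the unmatched held under 0.5% of counts. Estimated counts and TPM were summed per gene, counts rounded, and PAD4-DN compared with WT without a block by edgeR 4.0.16 in R 4.3.3 (TMM, filterByExpr, quasi-likelihood test, Benjamini-Hochberg over all genes). CPM uses TMM-scaled library sizes. Alternatives used DESeq2 1.42.0, limma 3.58.1 (voom, and trend on log2(TPM + 1) and log2(TPM + 0.1) with mean TPM of at least 1), other scalings, filters, a replicate block, named gene copies added to members, and each library left out. Members, roles, the other pathway genes and markers were chosen with earlier results of these data known. All members are described; of the other pathway genes the 6 coding genes with the smallest p and a mean of at least 5 CPM are named. Intervals cover the spread between libraries.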

Additional observations from a re-analysis of the deposited data

How the results depend on the processing

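No member was called under any of the alternatives, including a false discovery rate of 0.1. Over all genes, where edgeR called 0 (364 at an unadjusted p under 0.05), DESeq2 called 11 and edgeR without the low-count filter 10. With a library left out edgeR called 0 to 2 genes, the 2 without WT replicate 2; these fits keep 1 library in a group, which is assumed to vary like the other group. The members' median log2 fold change was −0.08 and ran from −0.19 without WT replicate 2 to 0.029 without WT replicate 1. With the replicate block it was −0.08 and 0 members were called, with 309 genes at an unadjusted p under 0.05. Same-numbered libraries deviated from their group means with a correlation of −0.34 over 13718 genes, and nothing in the labels says that the numbers pair the libraries. A crossed pairing (replicate 1 of one group with replicate 2 of the other), chosen after seeing the data, called 0 genes and 0 members. Signs of 11 members differed on log2(TPM + 1), and of 7 to 13 with a library left out. Of 431 values of single members under alternatives, 35 moved by at least 1 SD between replicates. Named gene copies held at most 0.348% of a member's counts.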
